A study of Drosophila melanogaster with 16 samples.

Results

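The genes described here encode the proteins that start, extend and end translation on cytoplasmic ribosomes. They were chosen by symbol alone: every gene whose symbol begins with eIF, eEF or eRF followed by a digit was taken, and a gene with several probe sets was represented by the probe set of the highest mean over the arrays. The rule found 43 genes, on 49 probe sets, of the 10844 genes that the arrays measured with a probe set of 1 symbol. By role, 4 act in start codon selection and the ternary complex, 5 encode subunits of eIF2B, 13 encode subunits of eIF3 and 3 are paralogues of eIF3 subunits. A further 10 act in cap binding and mRNA unwinding, 2 in subunit joining, 4 in elongation and 2 in release.

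Initiation factors place the small ribosomal subunit, carrying the initiator tRNA, on the capped end of an mRNA and let it scan to the start codon, where the large subunit joins. Elongation factors then bring in each aminoacyl-tRNA and move the ribosome along, and release factors free the finished protein at a stop codon. Because every cell translates, these genes are commonly treated as steadily expressed, although several have paralogues with expression restricted to particular tissues, such as the germ line of the fly.

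The study used Drosophila embryos of stage 11 to examine how overexpression of glide/gcm (gcm), the transcription factor that directs cells to a glial fate, alters gene expression. The RNA was hybridised to Affymetrix arrays, which read each transcript through a probe set, a group of short probes. Neuroectodermal cells were marked with the membrane protein mCD8-GFP in wild-type embryos and in embryos overexpressing gcm, dissociated, and purified on magnetic beads against mCD8. Whole embryos were measured beside them. The 4 groups were therefore sorted cells from control embryos (sorted control, 4 arrays), sorted cells from embryos overexpressing gcm (sorted gcm, 3 distinct arrays), whole control embryos (4 arrays) and whole embryos overexpressing gcm (whole gcm, 4 arrays). The titles write the gcm genotype as scagcm, shortened to gcm below, and do not spell out the prefix. The labels give no number of embryos per array, and do not say whether arrays of a group came from separate collections, so a p-value reflects no more than the scatter among these hybridisations. In both bulk tissue and sorted cells, fewer cells with a transcript and less of it per cell cannot be told apart. A sorted group also differs from a whole group in dissociation and bead purification, which cannot be told apart from the identity of the cells.

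Levels are given as log2(intensity + 16) after quantile normalisation, so that a difference of 1 is a doubling of intensity plus 16, and a level of 5 corresponds to an intensity of 16. The trimmed mean intensity ran from 66.8 to 166 over the 15 distinct arrays before normalisation. The arrays labelled sorted scagcm2 and sorted scagcm3 were identical in all 14010 values and were counted as 1. The array labelled whole control 3 correlated with the sorted arrays at a mean r of 0.931 over all probe sets and with the other whole embryo arrays at 0.690, and its gcm level was 13.15, against 8.10 to 8.69 on the other whole controls and 13.09 to 13.15 in sorted gcm. On that array 34 of the 43 translation factor genes lay nearer the sorted mean than the whole mean. The main comparisons leave it out and use 14 arrays, and results are also given with all 15. It lies outside the groups compared for gcm in sorted cells and for sorting in gcm embryos. An array outside the groups compared acts on a comparison only through the shared normalisation and the variance estimated over all groups. On those 14 arrays the sorted cells had the higher summed level of 8 neuroectoderm and neuroblast markers, 12.62 to 13.35 in sorted cells against 10.32 to 11.39 in whole embryos. In controls 5 of these 8 rose (among them wor, pros and nerfin-1) and 2 fell (SoxN and l(1)sc).

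Sorted cells and whole embryos differed in most of these genes, in both directions. In control embryos 30 of the 43 genes (69.8%) differed between sorted cells and whole embryos at an adjusted p under 0.05, against 46.4% of all 13966 probe sets tested with limma. Of these, 14 were higher in sorted cells (24.9% of all probe sets were) and 16 were lower (21.4%). In gcm embryos, compared on other arrays, 29 genes (67.4%) differed, against 45.5% of all probe sets, 14 of them higher (24.6%) and 15 lower (20.9%). The rises and falls nearly balanced: the median change of the 43 genes was -0.08 in controls and 0.08 in gcm embryos, and that of all probe sets was 0.07 in both. The median absolute change was 0.94 in controls against 0.55 over all, and 0.82 against 0.55 in gcm embryos. Dim probe sets are part of both figures. Among those with a mean level of 5 or more the values were 1.17 against 0.80 in controls and 1.09 against 0.79 in gcm embryos. With all 15 arrays 19 genes were called in controls, against 26.1% of all probe sets. Of these 8 were higher (12.8% of all) and 11 lower (13.3%). In gcm embryos 23 were called, against 36.9% of all, 12 of them higher (19.5%) and 11 lower (17.4%).

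**Figure D1:**
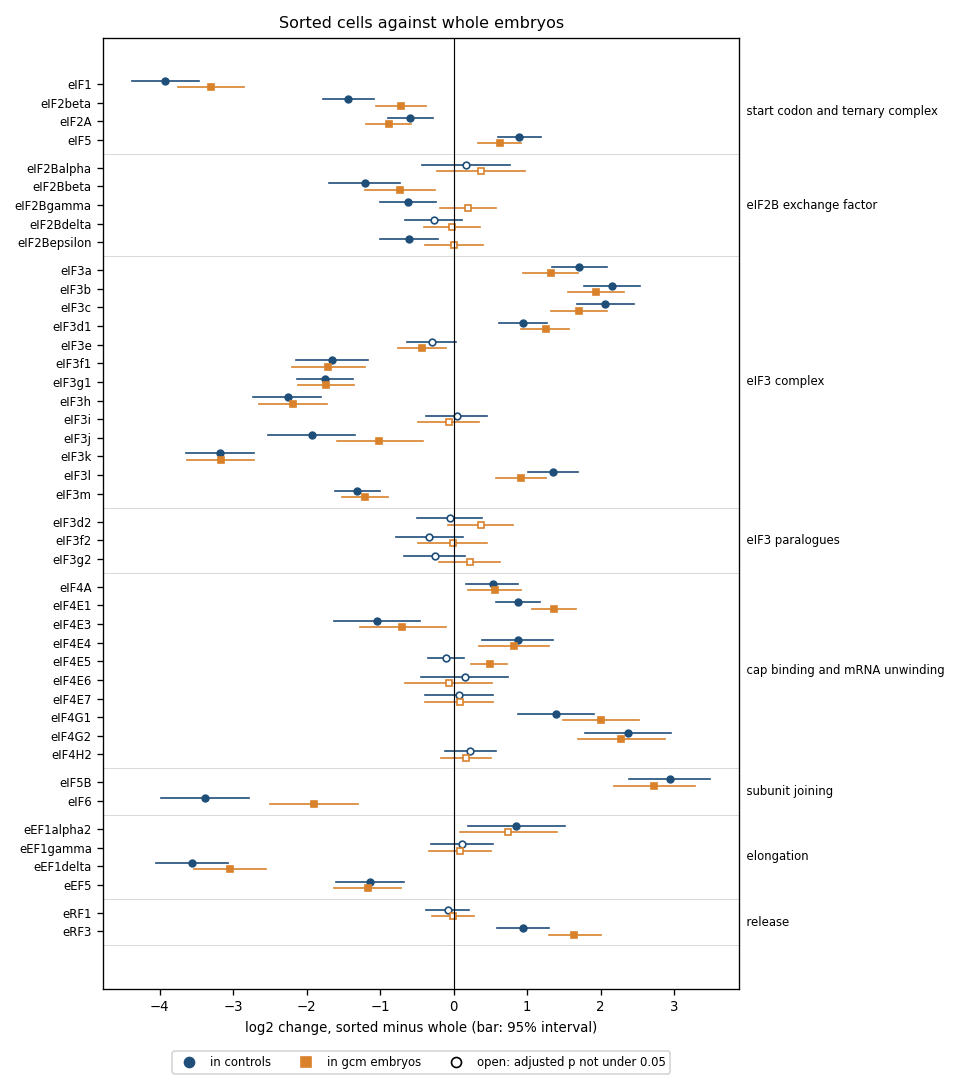
Log2 change between sorted cells and whole embryos for each of the 43 genes, in controls (blue circles) and in gcm embryos (orange squares), with 95% intervals and filled symbols at an adjusted p under 0.05, ordered by role. Changes ran from -3.92 for eIF1 to 2.94 for eIF5B in controls, and both signs occurred within the eIF3 complex.

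The order of the genes was alike in the 2 sorting comparisons, which share no arrays although all arrays were normalised and fitted together. Spearman's rho between the changes was 0.95 over the 43 genes and 0.88 over all 13966 probe sets, and the sign was shared by 83.7% of the genes and 83.0% of the probe sets. Altogether 27 of the 43 genes were called the same way in both, 13 higher and 14 lower. Of all 13966 probe sets 5062 were, 2705 higher and 2357 lower. Of the 27 genes, 17 were called in both comparisons with 14 and with 15 arrays, a count not made over all probe sets. They were eIF5, eIF3a, eIF3b, eIF3c, eIF3l, eIF4E1, eIF4G2 and eIF5B among the higher ones, and eIF1, eIF3g1, eIF3h, eIF3j, eIF3k, eIF3m, eIF6, eEF1delta and eEF5 among the lower ones. With intensities as deposited, however, the calls of eIF5, eIF3c, eIF3l and eIF4E1 were lost in controls, and those of eIF5 and eIF3l in gcm embryos.

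Start codon selection and the ternary complex were represented by 4 genes, of which 3 fell and 1 rose in sorted cells, in controls and in gcm embryos alike. The largest fall of all 43 genes was that of eIF1, which keeps the scanning ribosome from starting at the wrong codon. Its level was 6.75, 6.87, 6.19 and 6.78 in sorted controls against 10.51, 10.55 and 10.63 in whole controls. With gcm it was 6.79, 7.54 and 6.60 in sorted cells against 10.40, 9.99, 10.31 and 10.41 in whole embryos. The lowest whole embryo array thus lay far above the highest sorted array. The fall was 15.1-fold in controls (log2 change -3.92 ± 0.21 SE, adjusted p = 7.69e-10) and 9.85-fold in gcm embryos (-3.30 ± 0.21, adjusted p = 5.95e-09). The array labelled whole control 3 read 6.93, inside the sorted range, and with it the change in controls was -2.99 ± 0.61.

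eIF2beta, a subunit of the eIF2 trimer that carries the initiator tRNA, fell by less. It stood at 8.68, 8.74, 8.54 and 8.84 in sorted controls and 10.14, 9.99 and 10.28 in whole controls, a log2 change of -1.44 ± 0.16 (adjusted p = 2.10e-06). In gcm embryos the groups drew closer, with 8.96, 9.37 and 8.76 in sorted cells and 9.95, 9.55, 9.84 and 9.61 in whole embryos. The change was -0.71 ± 0.16 (adjusted p = 0.00188). In the fit with 15 arrays, where these groups hold the same arrays, it was -0.71 ± 0.28 and not called. eIF2A, a protein distinct from that trimer which in other species can also deliver initiator tRNA, fell by 0.59 in controls, a call lost with 15 arrays (adjusted p = 0.0888), and by 0.88 in gcm embryos. eIF5, which triggers GTP hydrolysis by eIF2 at the start codon, went the other way: it was 10.12, 10.12, 10.12 and 10.10 in sorted controls and 9.39, 9.37 and 8.91 in whole controls, and rose by 0.89 ± 0.14 (adjusted p = 5.88e-05). Its rise in gcm embryos was 0.63 ± 0.14 (adjusted p = 0.00148). With intensities as deposited the changes of eIF5 were 0.24 (adjusted p = 0.484) and 0.37 (adjusted p = 0.259), and with median centring that in gcm embryos was 0.49 (adjusted p = 0.0725).

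The subunits of eIF2B, the exchange factor that reloads eIF2 with GTP and on which stress signalling acts, fell or did not pass the test. In controls eIF2Bbeta, eIF2Bgamma and eIF2Bepsilon fell, by 1.21, 0.62 and 0.61, while eIF2Balpha (change 0.17) and eIF2Bdelta (-0.27) did not pass. The call of eIF2Bbeta was lost with 15 arrays (adjusted p = 0.0590), that of eIF2Bgamma with 15 arrays and without whole control 4, and that of eIF2Bepsilon without whole control 1. In gcm embryos eIF2Bbeta alone of the 5 passed, with a change of -0.73 ± 0.23 (adjusted p = 0.0142). It also failed the test there with 15 arrays, and without the array sorted gcm 4. No test separated the sorting changes of the subunits between control and gcm embryos at an adjusted p under 0.05. eIF2Bgamma came nearest among them, with sorted levels of 6.66, 6.55, 6.63 and 6.53 in controls and 6.76, 7.33 and 7.03 with gcm, and whole embryo levels of 7.06, 7.10 and 7.49 and of 6.89, 6.65, 6.82 and 7.01. The difference of its changes was 0.83 ± 0.25 (adjusted p = 0.244).

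The 13 subunits of eIF3, the scaffold that holds the small subunit and recruits the mRNA, did not move together. In controls 5 rose (eIF3a, eIF3b, eIF3c, eIF3d1 and eIF3l), 6 fell (eIF3f1, eIF3g1, eIF3h, eIF3j, eIF3k and eIF3m), and eIF3e and eIF3i did not pass the test. In gcm embryos the same 5 rose and the same 6 fell, together with eIF3e, whose change was -0.43 ± 0.16 (adjusted p = 0.0326). That call of eIF3e was lost with 15 arrays and without any 1 of 4 single arrays (sorted gcm 4 and whole gcm 2, 3 and 4). With all 15 arrays 4 subunits rose and 5 fell in controls, eIF3d1 and eIF3f1 no longer passing, and 5 rose and 6 fell in gcm embryos.

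**Figure D2:**
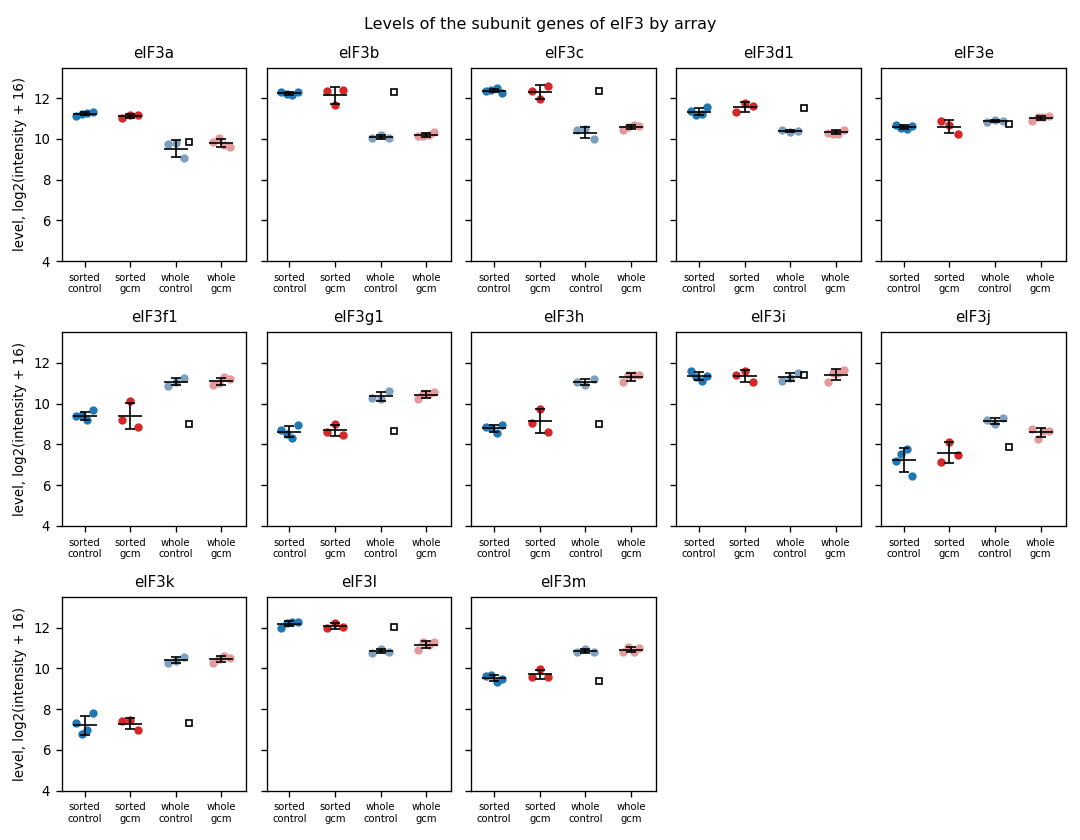
Level, as log2(intensity + 16), of each eIF3 subunit gene on every array of the 4 groups, with lines at the mean and bars of 1 SD over the 14 arrays and the array labelled whole control 3 as an open square. eIF3b, eIF3c and eIF3l lay higher and eIF3h, eIF3k and eIF3f1 lower in sorted cells than in whole embryos, and the open square lay with the sorted arrays for these genes.

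Among the rising subunits, eIF3b carries the module that touches the ribosome's mRNA entry side and belongs, with eIF3a and eIF3c, to the core that yeast also has. It read 12.31, 12.21, 12.16 and 12.29 in sorted controls and 10.06, 10.20 and 10.02 in whole controls. With gcm the values were 12.36, 11.64 and 12.41 in sorted cells and 10.12, 10.16, 10.20 and 10.33 in whole embryos. Sorted and whole arrays did not overlap, and the rise was 4.44-fold in controls (log2 change 2.15 ± 0.18, adjusted p = 7.24e-08) and 3.83-fold in gcm embryos (1.94 ± 0.18, adjusted p = 2.63e-07). eIF3c, to which other subunits dock, rose 4.18-fold and 3.27-fold, from 10.31 ± 0.26 (SD, n = 3) in whole controls to 12.37 ± 0.09 (SD, n = 4) in sorted controls. The change of eIF3c in controls was 0.70 (adjusted p = 0.0659) with intensities as deposited. eIF3a, the largest subunit, rose 3.28-fold and 2.49-fold. Its array whole control 3 read 9.87, within 0.42 (the SD) of the whole control mean of 9.53, so the change with 15 arrays, 1.61 ± 0.21, stayed near the 1.71 ± 0.18 without it. eIF3l and eIF3d1 rose less, by 1.35 and 0.94 in controls and by 0.92 and 1.25 in gcm embryos. With intensities as deposited the direction turned for eIF3l in both (-0.10 and -0.09) and for eIF3d1 in controls (-0.07). With median centring eIF3l (0.32 and 0.02) and, in controls, eIF3d1 (0.35) did not pass.

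The strongest fall within the complex was that of eIF3k, a small subunit that yeast lacks. It read 7.31, 6.76, 6.96 and 7.83 in sorted controls against 10.25, 10.39 and 10.55 in whole controls. With gcm it read 7.41, 7.49 and 6.97 in sorted cells against 10.26, 10.47, 10.61 and 10.51 in whole embryos. No sorted array came near a whole embryo array, and the fall was 9.06-fold in controls (-3.18 ± 0.22, adjusted p = 8.20e-09) and of the same order in gcm embryos (-3.17 ± 0.22, adjusted p = 1.03e-08). eIF3h, one of the subunits with an MPN domain, fell 4.80-fold and 4.54-fold, and the second probe set of the gene also fell, with changes of -1.33 (adjusted p = 0.00197) and -1.78 (adjusted p = 1.70e-04). eIF3f1, its MPN partner, fell 3.15-fold and 3.27-fold, and eIF3m, a PCI-domain subunit, 2.49-fold and 2.32-fold.

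eIF3g1 and eIF3j, which belong to the part of the complex that yeast shares, were also lower in sorted cells. eIF3g1, an RNA-binding subunit, fell 3.37-fold in controls and 3.33-fold in gcm embryos (adjusted p = 6.54e-07 and 7.81e-07). eIF3j, a loosely bound subunit at the decoding centre, read 7.17, 7.54, 7.77 and 6.45 in sorted controls and 9.19, 9.0 and 9.30 in whole controls, a change of -1.93 ± 0.28 (adjusted p = 2.52e-05). Gcm embryos gave 7.13, 8.14 and 7.49 against 8.77, 8.27, 8.67 and 8.66, and the highest sorted array approached the lowest whole array. That change was -1.01 ± 0.28 (adjusted p = 0.00704), and it was not called without the array sorted gcm 1. eIF3i, which has WD repeats and binds eIF3b, had changes of 0.04 (95% interval -0.38 to 0.45) and -0.07 (-0.48 to 0.34), with overlapping groups. With other scalings eIF3i was called lower: its changes were -1.14 and -0.84 with intensities as deposited and -0.72 in both with median centring. Members of the yeast-like core thus rose (eIF3a, eIF3b and eIF3c), fell (eIF3g1 and eIF3j) or did not pass after quantile normalisation (eIF3i).

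The paralogues eIF3d2, eIF3f2 and eIF3g2 passed the test in no comparison with the 14 or the 15 arrays after quantile normalisation. eIF3d2 did pass in gcm embryos without the array whole gcm 1 (0.56, adjusted p = 0.0195). eIF3g2 passed in controls with array weights (-0.49, adjusted p = 0.0460). eIF3d2 and eIF3g2 had mean levels under 5, near the background of the array, and lay between 4.17 and 5.30 on the 14 arrays, while eIF3f2 lay between 5.14 and 6.0.

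Of the 10 genes for cap binding and mRNA unwinding, 5 were called higher and 1 lower in sorted control cells, and 6 higher and 1 lower in sorted gcm cells. eIF4A, the RNA helicase of the cap complex, had bright signals in every group: 13.11, 12.97, 13.07 and 12.92 in sorted controls, and 12.48, 12.52 and 12.46 in whole controls. The groups did not overlap, and the change was 0.53 ± 0.17 (adjusted p = 0.0166) in controls and 0.56 ± 0.17 (adjusted p = 0.0121) in gcm embryos. Its direction depended on the scaling: with intensities as deposited the changes were -0.55 and -0.18, and with arrays centred on their medians -0.13 and -0.06. eIF4A was also not called with 15 arrays in either comparison, nor in controls without the array sorted control 1.

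The scaffolds that join the cap-binding protein to eIF4A and eIF3 rose. eIF4G1, the general scaffold, read 10.65, 10.44, 10.71 and 10.36 in sorted controls and 9.52, 9.32 and 8.61 in whole controls, and rose 2.61-fold (1.39 ± 0.24, adjusted p = 1.95e-04). In gcm embryos it read 10.62, 10.67 and 10.68 in sorted cells and 9.37, 8.59, 8.35 and 8.31 in whole embryos, and rose 4.0-fold (2.0 ± 0.24, adjusted p = 5.01e-06). The whole embryo arrays were more scattered than the sorted ones. In controls the call of eIF4G1 was lost with 15 arrays (0.95 ± 0.37, adjusted p = 0.0660) and with intensities as deposited. eIF4G2, a paralogue known for its role in spermatogenesis, read 9.53, 9.44, 9.75 and 9.75 in sorted controls and 7.71, 7.50 and 6.55 in whole controls, and rose 5.15-fold (adjusted p = 3.13e-06). Its rise in gcm embryos was 4.85-fold, from 7.58, 6.94, 6.36 and 6.69 in whole embryos to 9.33, 8.91 and 9.27 in sorted cells (adjusted p = 4.96e-06).

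Of the cap-binding proteins, eIF4E1, the main form in the fly, read 10.92, 10.86, 10.77 and 10.83 in sorted controls and 9.93, 10.03 and 9.92 in whole controls, and rose 1.85-fold (0.88 ± 0.14, adjusted p = 7.42e-05). In gcm embryos the rise was 2.57-fold (1.36 ± 0.14, adjusted p = 8.65e-07), and the difference between the rises, 0.48 ± 0.20, did not pass (adjusted p = 0.406). The change of eIF4E1 in controls was 0.09 (adjusted p = 0.784) with intensities as deposited. eIF4E3, a form known from the testis, fell 2.06-fold in controls (adjusted p = 0.00527), but with 15 arrays its change of -0.63 did not pass (adjusted p = 0.216). Its fall in gcm embryos, 1.62-fold, was at the limit of the test (adjusted p = 0.0493) and was lost without any 1 of 11 single arrays (sorted control 1 and 3, the 3 sorted gcm arrays, the 3 whole controls, and whole gcm 1, 3 and 4). eIF4E4 (in both comparisons) and eIF4E5 (in gcm embryos) passed the test, but on signals near background: the whole embryo levels of eIF4E4 were 4.20 to 4.48, and those of eIF4E5 were 4.14 to 4.76 over all 14 arrays. No size is read from them, and the calls of eIF4E4 were lost with 15 arrays (adjusted p = 0.190 and 0.0558). Both had a mean level under 5, as did eIF4E6, eIF4E7 and eIF4H2 (a relative of the helper protein eIF4H). After quantile normalisation eIF4E6, eIF4E7 and eIF4H2 passed the test in neither sorting comparison. With median centring eIF4H2 passed in controls (0.63, adjusted p = 0.00751). The number of genes with a mean level under 5 was 7 of 43, a limit chosen after the values were seen.

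Subunit joining gave the largest rise and one of the largest falls. eIF5B, the GTPase that brings the large subunit to the start codon, read 11.97, 12.16, 12.18 and 11.74 in sorted controls and 9.30, 9.34 and 8.59 in whole controls. Among gcm embryos it read 12.09, 11.20 and 12.31 against 9.57, 9.06, 9.02 and 8.91. Every sorted array exceeded every whole array of the 14, by a rise of 7.66-fold in controls (2.94 ± 0.26, adjusted p = 1.39e-07) and 6.63-fold in gcm embryos (2.73 ± 0.26, adjusted p = 3.49e-07). The probe set used is one of 3, and the others gave changes of 2.07 and 3.33 in controls and of 2.17 and 3.0 in gcm embryos, all called.

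eIF6, which binds the large subunit and keeps it from joining too early, read 5.33, 5.07, 5.02 and 4.47 in sorted controls and 8.22, 8.02 and 8.82 in whole controls. With gcm the levels were 5.33, 6.47 and 6.19 in sorted cells and 8.17, 7.62, 7.99 and 7.82 in whole embryos. The groups did not overlap, and eIF6 fell in controls (adjusted p = 7.55e-08) and, 3.73-fold, in gcm embryos (-1.90 ± 0.28, adjusted p = 3.83e-05). The mean of the sorted controls, 4.97, was near background, so the size in controls depended on the constant added before the log: it was -3.38 ± 0.28 with 16, -4.32 with 1 and -2.24 with 64. A second, dimmer probe set of eIF6 disagreed: its group means ran from 5.37 to 5.56, and its changes of -0.19 (adjusted p = 0.649) and -0.08 (adjusted p = 0.860) did not pass.

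**Figure D3:**
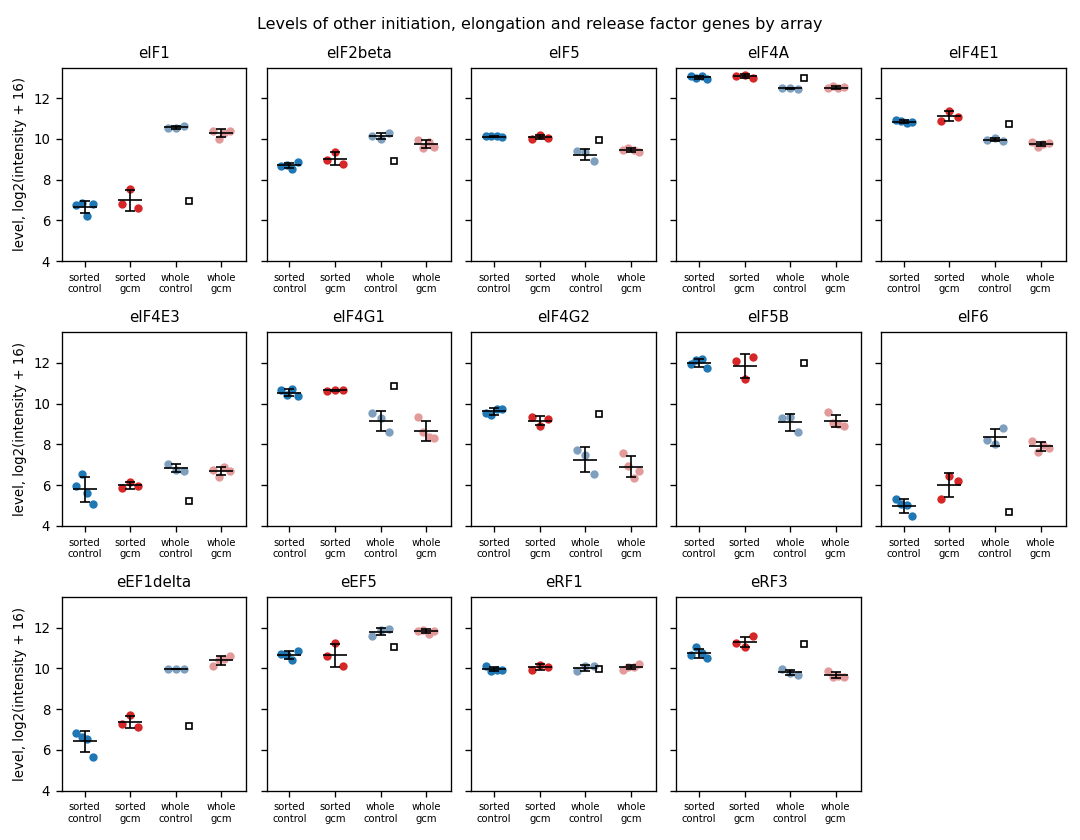
Level, as log2(intensity + 16), on every array for 14 genes of start codon selection, cap binding, subunit joining, elongation and release, with lines at the mean, bars of 1 SD over the 14 arrays and whole control 3 as an open square. eIF1, eIF6 and eEF1delta lay lower in sorted cells, eIF4G2 and eIF5B lay higher, and the 4 groups of eRF1 overlapped.

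Of the 4 elongation factor genes, 2 fell in both sorting comparisons after quantile normalisation. eEF1delta, a subunit of the exchange factor that recharges eEF1alpha with GTP, read 6.81, 6.63, 6.56 and 5.67 in sorted controls and 9.99, 9.96 and 9.99 in whole controls. In gcm embryos it read 7.26, 7.72 and 7.12 in sorted cells and 10.12, 10.41, 10.47 and 10.63 in whole embryos. The groups stood well apart, with falls of 11.8-fold in controls (-3.56 ± 0.23, adjusted p = 5.03e-09) and 8.22-fold in gcm embryos (-3.04 ± 0.23, adjusted p = 3.23e-08). eEF1gamma, another subunit of the same exchange factor, had changes of 0.11 (95% interval -0.31 to 0.53) and 0.09 (-0.33 to 0.51) on overlapping groups. With other scalings eEF1gamma was called lower in both: its changes were -1.21 and -0.94 with intensities as deposited, and -0.79 and -0.82 with median centring.

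eEF5, the hypusine-bearing factor also called eIF5A, helps ribosomes past difficult peptide bonds. It read 10.69, 10.65, 10.42 and 10.88 in sorted controls and 11.61, 11.87 and 11.92 in whole controls, and fell 2.20-fold (-1.14 ± 0.22, adjusted p = 3.80e-04). Its fall in gcm embryos was 2.25-fold (adjusted p = 3.12e-04). eEF1alpha2, a form of the factor that delivers aminoacyl-tRNA, rose by 0.85 ± 0.31 in controls (adjusted p = 0.0344) although the groups overlapped, with 6.32, 6.34, 6.71 and 5.95 in sorted cells and 5.56, 4.70 and 6.18 in whole embryos. That call was lost with 15 arrays, and without any 1 of 5 single arrays (sorted control 1, 2 and 3 and whole control 1 and 2). Its change in gcm embryos was 0.74 ± 0.31 (adjusted p = 0.0640), on groups that did not overlap. It was called there in 7 of 24 alternatives, among them array weights (0.89, adjusted p = 0.0110).

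The release factors behaved unequally. eRF1, which recognises stop codons, had changes of -0.08 (95% interval -0.37 to 0.21) in controls and -0.01 (-0.30 to 0.27) in gcm embryos. All of its 14 values lay between 9.87 and 10.21. eRF3, its GTPase partner, read 10.67, 11.05, 10.75 and 10.53 in sorted controls and 9.95, 9.80 and 9.70 in whole controls, and rose 1.92-fold (0.94 ± 0.17, adjusted p = 2.01e-04). In gcm embryos it read 11.24, 11.07 and 11.59 against 9.87, 9.56, 9.64 and 9.56, and rose 3.12-fold (1.64 ± 0.17, adjusted p = 6.64e-07). In controls its call was lost with 15 arrays (0.59 ± 0.29, adjusted p = 0.138) and with intensities as deposited.

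The balance of rises and falls depended on the scaling of the arrays. In controls 46.7% of the called genes were higher in sorted cells after quantile normalisation, 38.7% after centring on medians, and 18.5% with intensities as deposited, where 5 were called higher and 22 lower. Among these 22 were eIF2Bdelta (-0.94), eIF3e (-1.17), eIF3f2 (-0.67) and eRF1 (-0.76), which did not pass after quantile normalisation. In gcm embryos these shares were 48.3%, 39.3% and 39.3%. Over all probe sets, in the same order, 3482 were called higher and 2995 lower in controls, then 4798 and 3019, and 1776 and 4304. In gcm embryos 3441 of all probe sets were called higher and 2920 lower, then 3494 and 2963, and 2681 and 3201. These scalings moved the median of all probe sets too, from 0.07 to 0.27 and -0.16 in controls. Relative to that median, 29 of the 30 genes called in controls stayed on the same side under either scaling, the exception being eIF4A, and 27 of 29 did in gcm embryos, the exceptions being eIF3l and eIF4A.

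The genes that rose in sorted cells tended to be the longer ones. Spearman's rho between the change in controls and genomic gene length, introns included, was 0.64 over the 43 genes, and 0.74 over the 36 with a mean level of 5 or more. Over 10799 genes of the arrays, the translation factor genes included, it was 0.35. Over the 7949 other genes at that level, with the translation factor genes left out, it was 0.44. In gcm embryos the values were 0.63 and 0.75 for the translation factor genes and 0.32 and 0.39 for the larger sets. eIF5B, eIF4G1 and eIF4G2 span 32320, 15419 and 10953 bases in RefSeq's release 6, whereas eIF3k, eIF6 and eIF1 span 919, 1056 and 1310. Within eIF3, the 5 subunits that rose in controls span 2279 (eIF3d1) to 4098 bases (eIF3a). The 6 that fell span 919 (eIF3k) to 1969 bases (eIF3j). eIF3e and eIF3i, which did not pass in controls, span 1700 and 1409. Genes on 1 array share the library and its labelling, and the part of gene length in the changes was not tested.

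**Figure D4:**
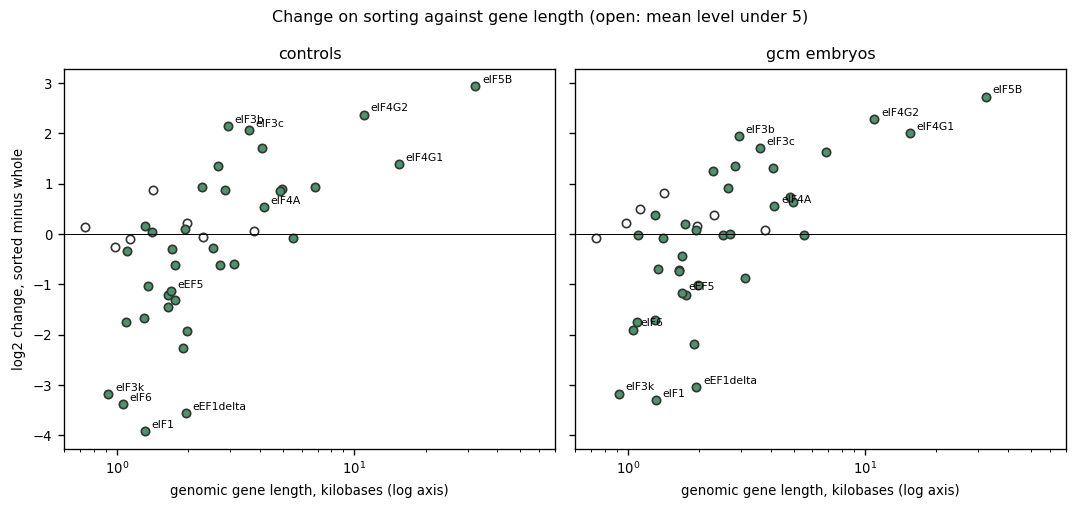
Log2 change between sorted cells and whole embryos against genomic gene length on a log axis, for the 43 genes in controls (left) and in gcm embryos (right), with open circles for the 7 genes of a mean level under 5. The longest genes (eIF5B, eIF4G1 and eIF4G2) lie above 0, and in controls the lowest points (eIF1, eIF3k, eIF6 and eEF1delta) belong to genes under 2 kilobases.

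Stress genes, cell type markers and the 3′ to 5′ ratio of the actin control also differed between sorted cells and whole embryos, while that ratio of eIF-4a overlapped. Control probe sets at the 3′ and 5′ ends of the eIF-4a transcript gave log2 ratios of 1.04 ± 0.16 (SD, n = 4) in sorted controls, 0.98 ± 0.08 (n = 3) in sorted gcm, 1.12 ± 0.18 (n = 3) in whole controls and 1.09 ± 0.15 (n = 4) in whole gcm, which overlapped. Those of actin were 1.66 ± 0.07 and 1.92 ± 0.27 in sorted cells and 0.91 ± 0.24 and 0.86 ± 0.31 in whole embryos. Those of GAPDH are not read in sorted cells, where its intensities were 2.2 to 33 at the 5′ end and 2.4 to 22.2 at the 3′ end. Of 8 measured heat shock and dissociation stress genes, 6 rose and 1 fell in sorted controls (3 and 1 with 15 arrays), among them puc, a target of JNK signalling, by 3.24. Their summed level was 10.85 to 12.42 in sorted cells and 9.63 to 10.25 in whole embryos. Of the markers of other cell types, 5 of 5 glial genes rose in sorted controls (summed level 11.84 to 12.55 against 9.21 to 9.80 in whole controls), as did 2 of 3 mesoderm genes (8.90 to 9.19 against 8.34 to 8.55). Hemocyte genes split 1 higher and 1 lower of 5, with summed levels of 8.43 to 9.33 and 8.38 to 9.19. Endoderm and yolk genes split 1 and 1 of 6 (8.39 to 8.97 and 7.94 to 8.73), and germ cell and maternal genes 1 and 2 of 6 (8.66 to 9.0 and 8.70 to 8.94). With 15 arrays 0 of the 5 glial and 0 of the 3 mesoderm genes were called in controls by limma, and of the other 3 lists 1 hemocyte and 1 germ cell gene, both lower. The part of these differences in the changes of the translation factor genes was not tested.

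Overexpression of gcm moved none of the 43 genes past the test. In sorted cells 0 of 43 were called by limma, against 0.780% of all probe sets, and 4 had an unadjusted p under 0.05 (10.6% of all probe sets had one). In whole embryos 0 of 43 were called, against 0.444% of all, and 3 had an unadjusted p under 0.05 (11.6%). The changes ran from -0.45 to 1.02 in sorted cells and from -0.57 to 0.43 in whole embryos, with a median SE of 0.19. With 15 arrays limma again called 0 in sorted cells (0.122% of all) and 0 in whole embryos (0.0573%), and 0 (5.57% of all) and 3 (11.2%) had an unadjusted p under 0.05. On the 14 arrays gcm itself rose, from 11.34 to 12.19 in sorted controls to 13.09 to 13.15 in sorted gcm, and repo, a glial gene that gcm activates, from 8.01 to 8.92 to 10.72 to 11.34. With 15 arrays neither gcm (adjusted p = 0.992 in sorted cells and 0.608 in whole embryos) nor repo (0.513 and 0.732) passed the test. The sorted groups hold the same arrays in both fits, and their gcm and repo levels did not overlap. Whole control 3, with gcm at 13.15, enters the sorted comparison only through the shared normalisation and the variance estimated over all groups.

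The largest difference in sorted cells was that of eIF6, 1.02 ± 0.28 (95% interval 0.42 to 1.62, adjusted p = 0.138). Its sorted control mean, 4.97, was near background, and over the alternatives the change ran from 0.51 to 1.61. Its highest sorted control array equalled the lowest sorted gcm array to 2 decimals, at 5.33, and without that array, sorted gcm 1, the change was 1.37 and passed (adjusted p = 0.0347). The second probe set of the gene gave 0.04 (adjusted p = 0.985). eEF1delta was higher on every sorted gcm array, 7.12 to 7.72, than on any sorted control array, 5.67 to 6.81, with a change of 0.95 ± 0.23 (adjusted p = 0.0812). It was also higher on every whole gcm array than on the whole controls, by 0.43 ± 0.23 (adjusted p = 0.529). eRF3 (0.54 ± 0.17, adjusted p = 0.186) and eIF2Bgamma (0.45 ± 0.18, adjusted p = 0.364) likewise had sorted groups that did not overlap, and so did eIF4G2, the largest decrease (-0.45 ± 0.28, adjusted p = 0.636). Together these were 4 genes of 43 without overlap, against 9.10% of all probe sets.

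**Figure D5:**
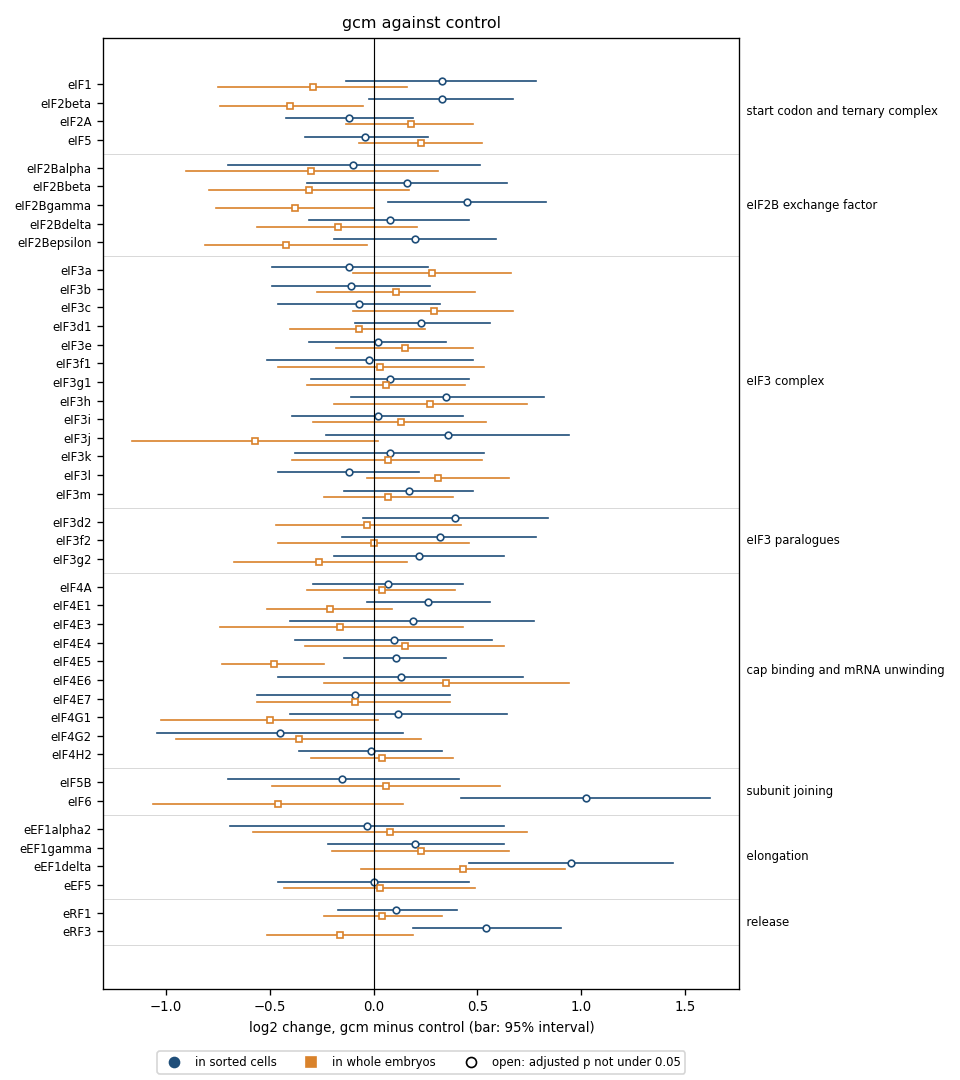
Log2 change between gcm and control for each of the 43 genes in sorted cells (blue circles) and in whole embryos (orange squares), with 95% intervals, ordered by role. All symbols are open because 0 of 43 genes had an adjusted p under 0.05, and the largest values were 1.02 for eIF6 and 0.95 for eEF1delta in sorted cells.

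In whole embryos 8 genes had groups that did not overlap, against 12.3% of all probe sets, of which 2 were higher with gcm (eIF4E4 and eEF1delta, 5.30% of all) and 6 lower (eIF1, eIF2beta, eIF2Bgamma, eIF3j, eIF4E1 and eIF4E5, 6.97% of all). With whole control 3 included only eEF1delta and eIF4E1 of these remained, against 6.04% of all probe sets. The smallest adjusted p was that of eIF4E5, 0.0723, for a change of -0.48 ± 0.12 at levels near background. eIF3j (-0.57 ± 0.28, adjusted p = 0.454), eIF4G1 (-0.50 ± 0.24, adjusted p = 0.465) and eIF6 (-0.46 ± 0.28, adjusted p = 0.637) had the other large decreases. With 15 arrays eIF4G1 was at -0.92 and eIF6 at 0.45, in the other direction, and neither passed. The 5 subunits of eIF2B had values from -0.42 to -0.17, none of which passed, and with 15 arrays eIF2Bbeta was at 0.04. With array weights eIF2Bepsilon passed (-0.54, adjusted p = 0.0471), as did eIF4E5 and eIF4G1. After eEF1delta, the largest increases were those of eIF4E6 (0.35) and eIF3l (0.31).

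The effect of gcm was then compared between sorted cells and whole embryos, which is also the difference between the sorting changes of gcm and control embryos. limma called 0 of 43 genes, against 0.0286% of all probe sets, and 8 had an unadjusted p under 0.05 (10.5% of all). The largest difference was that of eIF6, 1.48 ± 0.40 (adjusted p = 0.217), whose sorted controls were near background. It was followed by eIF3j, 0.93 ± 0.39 (adjusted p = 0.412). With 15 arrays limma called 0, against 0.00716% of all, and 4 had an unadjusted p under 0.05 (6.29%).

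Other genes of translation were examined as lists. Of 24 regulators of initiation, 18 were measured. In sorted cells 9 rose and 2 fell in controls, and 10 rose and 2 fell in gcm embryos (8 and 1, and 8 and 2, with 15 arrays). NAT1, an eIF4G relative without the cap-binding region, rose by 3.92 ± 0.29 in controls and 3.60 ± 0.29 in gcm embryos (adjusted p = 2.40e-08 and 6.99e-08). Lk6, the kinase that phosphorylates eIF4E, rose by 3.30 ± 0.17 and 2.85 ± 0.17. InR, the insulin receptor, rose by 3.43 ± 0.37 in controls, and Fmr1, an RNA-binding repressor of translation, by 2.08 ± 0.22. crc, the fly ATF4, which is translated when eIF2B activity falls, rose by 1.69 ± 0.19 in gcm embryos. The medians of the list were 0.84 and 1.02, against 0.07 for all probe sets, of which 46.4% and 45.5% were called.

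Of 10 factors of mitochondrial translation, 8 were measured, of which 1 rose and 3 fell in controls and 2 rose and 3 fell in gcm embryos. mRRF1, a recycling factor, fell by 1.67 and 2.24, mEFTu2, an elongation factor, by 1.28 and 1.44, and mIF3, an initiation factor, by 1.05 and 1.04. With 15 arrays 0 rose and 1 fell in controls, and 2 rose and 3 fell in gcm embryos. Of 29 aminoacyl-tRNA synthetases, which charge the tRNAs, 5 rose and 2 fell in controls and 9 rose and 4 fell in gcm embryos, against the 46.4% and 45.5% of all probe sets called. With 15 arrays these were 2 and 1, and 8 and 3. ValRS rose by 2.33 ± 0.24 and 2.53 ± 0.24 and AsnRS by 2.05 ± 0.20 and 2.53 ± 0.20, while the medians, 0.02 and 0.19, were near that of all probe sets. None of these 3 lists had a gene called for gcm against control in sorted cells or in whole embryos. pAbp, the poly(A)-binding protein, had the smallest p among the regulators in sorted cells (1.01 ± 0.37, adjusted p = 0.308), and Paip2, which inhibits it, in whole embryos (0.98 ± 0.22, adjusted p = 0.0601).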

How the data were processed

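The authors' deposited table gives a linear intensity, from 0 to 12846.6, for each probe set on each array. The algorithm and scaling that the authors used to make these intensities are not given in the sources used here. Symbols came from the platform annotation: of 13966 probe sets left after removing 44 controls, 12443 had 1 symbol, 327 several and 1196 none. All 43 genes matched RefSeq release 6 by gene ID, which gave gene lengths. No sequence or position is printed, since no table used here holds the sequences.

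The arrays were quantile normalised together and taken as log2(intensity + 16). limma 3.58.1 (R 4.3.3) fitted 1 mean per group with a trended variance (lmFit, eBayes), p-values were adjusted over all 13966 probe sets by Benjamini-Hochberg, and genes were called at an adjusted p under 0.05. No depth exists for arrays, and their number limits the precision. The fit was tested on simulated data in which 200 probe sets with a mean level of at least 7 had been altered. The restriction to that level was made after a first run over all levels missed its target. For sorting in controls, the restricted run recovered 65.0% of changes of log2 size 1 and 97.0% of size 2, with 9 false calls. A change of log2 size 1 can thus fail the test.

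The members, lists and the choice to leave out whole control 3 were made with earlier results of these data known. Named genes are those called in any of 5 comparisons with 14 or 15 arrays, those of the 5 highest and 5 lowest means, all cap-binding, scaffold, eIF2, eIF2B, elongation and release factor genes, and the 3 largest rises and 3 largest falls per comparison. Other lists are shown by up to 4 genes of the smallest p. The roles used for ordering were assigned after the files were seen.

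Over 3 pairs of whole embryo arrays of the same number the residual r was 0.202 to 0.343, and between arrays of different numbers -0.287 to 0.290. These ranges overlap, so pairing by number is not established. The main comparisons use no pairs, and a fit with the numbers as pairs is given below. In sorted gcm against sorted control the residual r of arrays of the same number was 0.0372 to 0.218, against -0.176 to 0.0852 for different numbers. With the copied array under its other number these were -0.0431 to 0.119 and -0.176 to 0.218.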

Additional observations from a re-analysis of the deposited data

Results flagged for a closer look

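In groups of 4 arrays, 7 of 86 groups of a gene had an array set apart from the other 3 by most of the group's range, where chance gives about 1 in 20. In sorted controls these were eIF5 on array 4 (10.10, the others all 10.12), eIF4E6 on array 4 (5.45, the others 4.24 to 4.32) and eRF1 on array 1 (10.10, the others 9.90 to 9.91). In whole gcm embryos they were eIF3d1 on array 4 (10.46, the others 10.26 to 10.28), eIF3e on array 1 (10.88, the others 11.07 to 11.10), eIF3h on array 1 (11.04, the others 11.41 to 11.43) and eIF3d2 on array 1 (5.01, the others 4.17 to 4.29). In addition, whole control 3 was set apart from the other whole controls for 14 of 43 genes.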

How the results depend on the processing

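With the array labelled whole control 3 included, 19 genes were called for sorting in controls. With intensities as deposited 27 were, 5 higher and 22 lower, against 1776 higher and 4304 lower of all probe sets. Leaving out single arrays gave 28 to 30 called genes in controls and 26 to 29 in gcm embryos, and 14 of 30 and 20 of 29 were called in every alternative. For gcm in sorted cells it gave 0 to 1, the 1 being eIF6 without sorted gcm 1. Array weights gave 3 called genes for gcm in whole embryos (eIF2Bepsilon, eIF4E5 and eIF4G1, all lower). With intensities as deposited the median change of the genes was -0.67 for sorting in controls, -0.18 for sorting in gcm embryos, -0.19 for gcm in whole embryos and 0.47 for the difference of the gcm effects. It was -0.29 for sorting in controls over the 36 genes left without the dimmest 40% of probe sets. Directions turned with intensities as deposited in controls for eIF3d1 (-0.07), eIF3i (-1.14), eIF3l (-0.10), eIF4A (-0.55) and eEF1gamma (-1.21), and in gcm embryos for eIF3l (-0.09), eIF4A (-0.18) and eEF1gamma (-0.94). With median centring they turned in controls for eIF3i (-0.72), eIF4A (-0.13) and eEF1gamma (-0.79), and in gcm embryos for eIF4A (-0.06) and eEF1gamma (-0.82). The cause was not tested. The replicate block, with the copied array as 2 or as 3, gave 29 or 30 called genes for sorting in controls, 28 or 27 in gcm embryos, and 0 in both gcm comparisons and their difference. The paired fit of gcm in whole embryos thus changed no call. Normalising sorted and whole arrays separately (gcm comparisons only), and the side-by-side probe sets, were added after seeing the data. Dim signals limit the genes with a mean level under 5, whose changes are bounded by the added 16.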
